A study of Mus musculus with 2 samples.

Results

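The nuclear receptors are transcription factors that bind DNA through zinc fingers, and most of them are switched by a small lipid-soluble ligand. The genes described here are 34 of these receptors and 5 of the coregulators they recruit, 39 genes in all among the 23420 gene rows of the count table. They were chosen by name: ligand-activated and orphan receptors, leaving out the clock and immediate early ones, and coregulators that the aryl hydrocarbon receptor (AhR) is known to share. RNA was taken from the RPE-choroid (retinal pigment epithelium together with the choroid, its blood supply) of untreated mice aged 11 to 13 months. The 3 knockout-labelled mice were AhR -/- of strain B6.129-AhRtm1Bra/J, which carry a targeted Ahr allele in the germline. The 3 wild-type mice were C57BL6/J, AhR +/+. Each library held polyadenylated RNA pooled from 2 eyes of 1 animal, and the labels list 3 animals in each group. In both groups animal 1 was female, as read from Xist and Y-linked genes, and the others were male.

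Retinoid X receptors sit at the centre of this family, because the retinoic acid, thyroid hormone, vitamin D, fatty acid, oxysterol and bile acid receptors bind DNA as pairs with them. Steroid receptors act as pairs of the same protein, and orphan receptors are those for which no physiological ligand is firmly established. Without ligand, several of these receptors hold corepressors such as NCOR1, and with ligand they exchange them for the p160 coactivators NCOA1, NCOA2 and NCOA3, which AhR and its partner ARNT also recruit. AhR itself belongs to another family, the basic helix-loop-helix PAS proteins, and binds a short core motif, GCGTG. In the eye, retinoids are handled in bulk by the pigment epithelium, which recycles the visual chromophore.

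The samples bear on every value that follows. The libraries held between 18058725 and 28692624 counts in genes. Ahr transcripts were counted in all 6 libraries and went against the direction its label would give: 41.4, 45.4 and 40.6 CPM (gene counts scaled to a common library size with edgeR's TMM factors) in knockout-labelled animals 1, 2 and 3, and 19.7, 20.2 and 26.0 in wild-type animals 1, 2 and 3. A gene-level count does not show which exons the reads came from, so it does not check the targeted allele, and the libraries are called knockout-labelled throughout. The tissue label was checked by its markers: all 6 pigment epithelium markers were tested, and their summed level was 27670, 16964 and 17663 CPM in knockout-labelled animals 1, 2 and 3 and 20861, 28789 and 25614 CPM in wild-type animals 1, 2 and 3. Markers of other tissues were summed in the same way. The 9 cornea and conjunctiva epithelium markers summed to 3645, 15274 and 11912 CPM in the knockout-labelled animals and 6272, 2627 and 3027 CPM in the wild-type animals, and their median log2 fold change was 1.23. The 8 endothelial markers summed to between 483 and 692 CPM against 779 to 807 CPM, with a median of -0.41, and 0 of the markers in these 3 lists were called, although 2 endothelial markers were with DESeq2 and 2 endothelial and 1 cornea marker with edgeR's exact test. Further marker sums did not overlap between the groups. The 6 neutrophil markers summed to between 56.2 and 117 CPM with the knockout label and between 6.01 and 11.8 CPM in the wild type. Of the 4 tested, 1, Ltf (lactotransferrin), was called. Ltf made up most of the knockout-labelled sums, at 88.0, 46.0 and 62.2 CPM. S100a8 and S100a9 also lay higher in every knockout-labelled library. Camp did not (log2 fold change -0.20), and Ngp and Elane were at 0 in every library, so the sum does not measure neutrophils as such. The 5 erythroid markers, 2 of them tested, summed to between 55.7 and 1062 CPM, the highest in knockout-labelled animal 1, against 4.29 to 33.7 CPM. Alas2 made up most of it, at 847, 45.4 and 57.9 CPM in the knockout-labelled animals. Hbb-b1 had 212, 10.3 and 19.2 CPM there, against 0.526, 3.88 and 6.29 CPM in the wild type. Hba-a1 and Hba-a2 were at 0 in every library. Alignments that were not unique are left out of the counts, so this 0 is not read as absence. Pericyte and smooth muscle markers summed to 704 to 924 against 960 to 1102 CPM, fibroblast markers to 7787 to 8305 against 8973 to 10936 CPM, and sclera and cartilage markers to 614 to 969 against 992 to 1631 CPM. Their part in the values of the receptors was not tested. In bulk tissue, fewer cells of a type and less RNA per cell cannot be told apart.

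Of the 39 genes, 34 had enough counts to be tested, and 0 of them passed. A gene was called at a Benjamini-Hochberg adjusted p under 0.05 in edgeR's quasi-likelihood test over all 15796 genes tested, a threshold that 0.0506% of them reached. Among the 34, 17 had a log2 fold change (knockout-labelled over wild type) above 0 and 17 below, with a median of -0.000719 against 0.01 over all tested genes. The smallest adjusted p was 0.247, for Nr1h2. Before adjustment, 3 of the 34 (8.82%) had a p under 0.05, beside 14.2% of all tested genes. All 3, Rara, Nr1h2 and Nr2e1, lay on the lower side, where 6.62% of all genes had such a p. In 4 members (11.8%) the groups did not overlap, with every knockout-labelled library below every wild-type one, against 9.96% of all genes, and 1 (2.94%) had the reverse, against 10% of all genes. Over all tested genes 48.8% lay below 0. The signs of Rxra, Nr3c1 and Esrrb, all near 0, turned in some alternatives, and those of Thra and Rxrb turned under a correction for transcript GC content. In the authors' deposited table, which lists 37 of the 39 and calls 2.37% of its 16561 genes at an FDR under 0.05, 0 members reached that level. The smallest FDR there was 0.207, for Nr2e1.

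What the data limit is the size of change that could have been missed. The 95% interval of the fold change lay within a 2-fold change in either direction for 27 of the 34 tested members and within a 1.5-fold change for 13. Among the 24 members above 10 CPM in every library, the median coefficient of variation was 12.5% over the knockout-labelled animals and 9.72% over the wild-type animals, and the highest was 39.2%, for Nr2e1 in the knockout-labelled group.

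**Figure D1:**
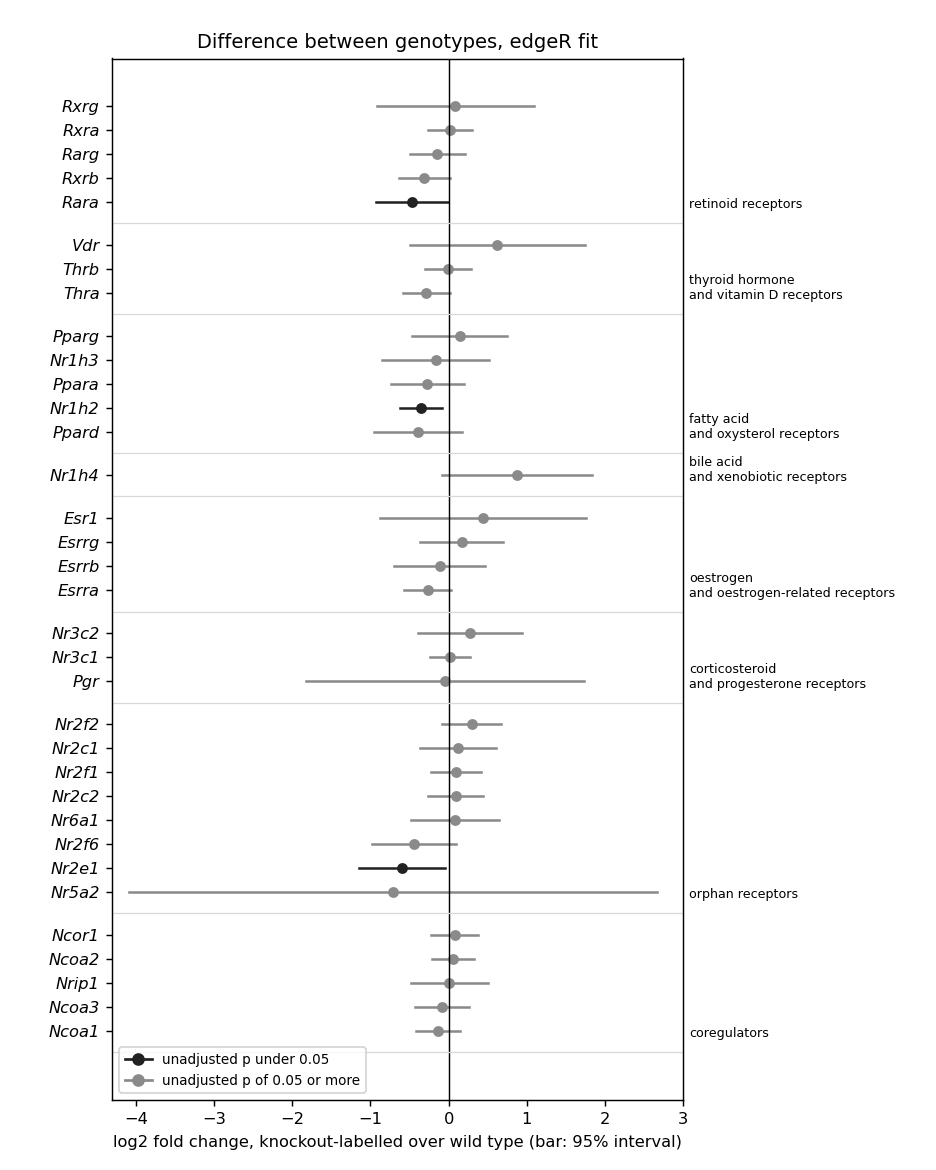
The log2 fold change (horizontal axis) of each tested member is drawn by role as a point with its 95% interval. The intervals of Rara, Nr1h2 and Nr2e1, in black, lie below 0, and the widest interval is that of Nr5a2, which had 0 counts in 2 libraries.

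The promoters of those 3 genes are shown because AhR binding motifs can be read in them directly. RefSeq promoters (GRCm38.p6) were found for 35 of the 39 genes, 56 start sites in all, with none matched for Thra, Nr3c1, Ncoa2 and Ncoa3. The AhR core motif GCGTG, on either strand, occurred within 250 bases upstream of at least 1 start site of 19 of the 35 genes (54.3%), against 47.3% of tested genes and 30.9% of all genes. Counted by start site, it occurred in 37.5% of the members' promoters, 41.8% of those of tested genes and 28.2% of all. The nuclear receptor motif AGGTCA, on either strand, occurred in 17.9% of the members' promoters, 11.1% of those of tested genes and 14.0% of all. These are counts of letters, not of bound sites. Each sequence reads 5′ to 3′ toward the start of transcription, without bases annotated as exon, and capitals mark the core motif. Nr1h2 is at chr7:44553966-44554215 and Nr2e1 at chr10:42583633-42583834, both on the minus strand. The Rara window, at chr11:98937446-98937695 on the plus strand, lies inside the annotated gene and precedes 1 of its 4 start sites in the table.
Nr1h2: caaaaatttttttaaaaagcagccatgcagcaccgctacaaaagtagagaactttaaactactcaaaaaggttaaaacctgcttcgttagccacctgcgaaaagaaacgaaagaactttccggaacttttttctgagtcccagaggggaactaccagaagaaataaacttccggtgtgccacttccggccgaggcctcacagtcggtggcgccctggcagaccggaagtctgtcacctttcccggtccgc
Nr2e1: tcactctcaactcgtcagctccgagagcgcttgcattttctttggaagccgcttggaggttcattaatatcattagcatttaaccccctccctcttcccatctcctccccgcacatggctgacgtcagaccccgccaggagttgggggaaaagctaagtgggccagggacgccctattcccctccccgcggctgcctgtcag
Rara: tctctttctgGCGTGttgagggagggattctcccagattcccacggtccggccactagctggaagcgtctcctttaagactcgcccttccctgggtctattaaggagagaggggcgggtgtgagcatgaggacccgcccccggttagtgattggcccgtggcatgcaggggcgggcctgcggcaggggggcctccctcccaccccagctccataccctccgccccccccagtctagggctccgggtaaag
The core motif occurred at 1 place in the Rara window and at none in the Nr1h2 and Nr2e1 windows. The other 3 Rara windows held none, and none of these windows held AGGTCA.

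Levels set the scale for what follows. On CPM per kb of exon, which allows genes to be compared, the most abundant member was Thra at 43.6 (mean of the group means), followed by Nr1h2 at 32.1, Rxra at 27.9, Esrrb at 25.5 and Esrra at 20.1. Rarg, Rxrb, Ncor1, Nr2f1, Ncoa1, Nr3c1, Nr2e1, Rara and Nr2f2 came next, between 16.2 and 11.1. In this order the 6 libraries of each gene overlapped with those of the next in every one of the 38 steps, so neighbours are not ranked beyond their spread. Below 2 CPM per kb were Nr3c2, Nr1h4, Vdr, Esr1, Pgr, Nr5a2, Esr2, Nr1i2 and Nr1i3, in that order. Nr0b1 and Nr0b2, the atypical receptors that lack a DNA-binding domain (DAX1 and SHP), had 0 counts in all 6 libraries. A count of 0 allows a level of up to 0.104 to 0.165 CPM, taken as 3 counts in each library, which covers counting error only.

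**Figure D2:**
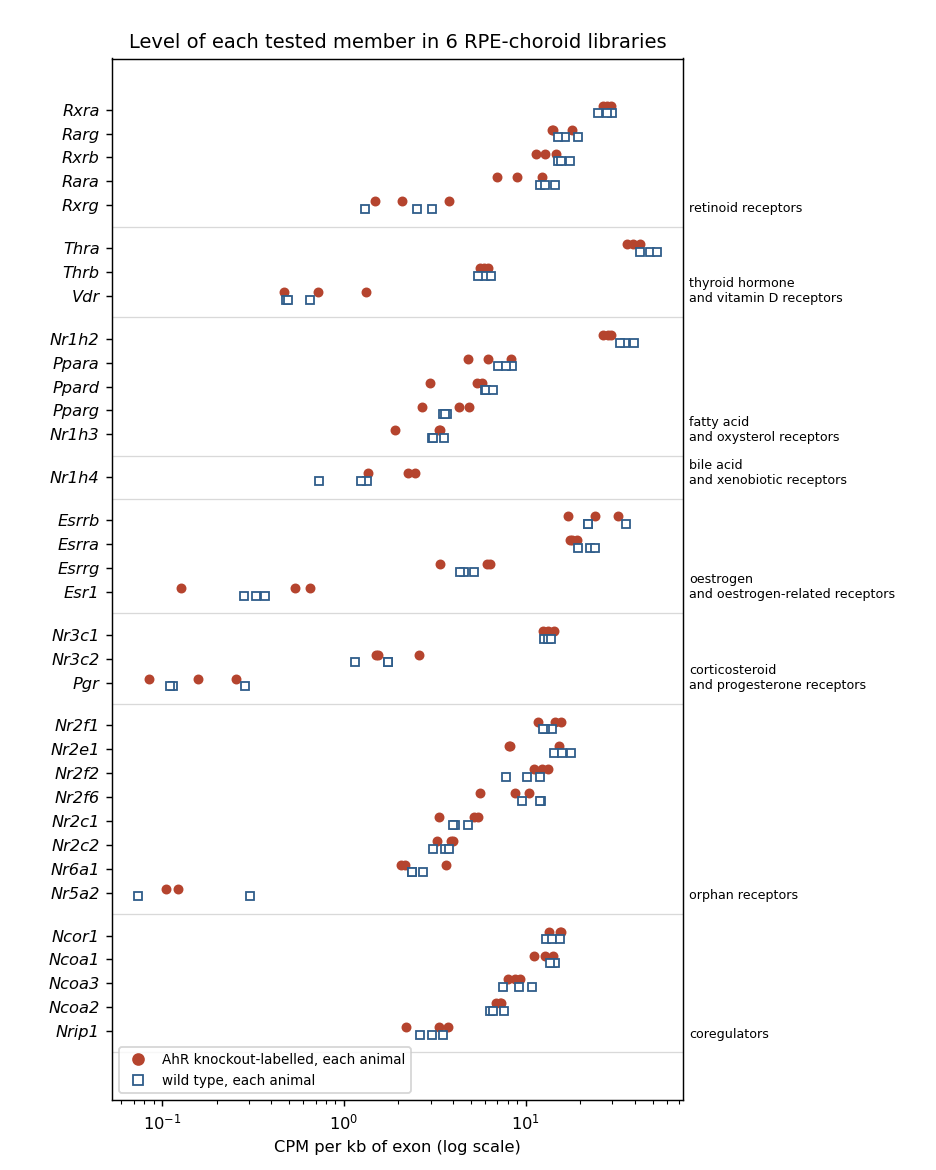
Each point is the level of a tested member in 1 animal, in CPM per kb of exon on a log scale, with filled circles for knockout-labelled and open squares for wild-type animals. Levels span from Thra, at 43.6 on average, to genes near 0.1 such as Nr5a2, and a library at 0 is not drawn.

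Of the 5 retinoid receptors 2 lay above 0 and 3 below, and 0 passed. Rxra, the retinoid X receptor on which most pairs depend, was level across the groups: 137, 151 and 143 CPM in knockout-labelled animals 1, 2 and 3 and 153, 144 and 128 CPM in wild-type animals 1, 2 and 3. The groups overlapped fully, and the log2 fold change was 0.02 (SE 0.12, adjusted p = 0.964), with a 95% interval from -0.26 to 0.30. A correction for transcript GC content moved it to 0.22 (adjusted p = 0.567). Rara, the broadly expressed retinoic acid receptor (chr11:98927818-98974942, GRCm38), was counted at 53.0, 29.9 and 38.4 CPM in knockout-labelled animals and 51.2, 54.5 and 62.3 CPM in wild-type animals. Knockout-labelled animal 1 lay among the wild-type values, and animals 2 and 3 lay below all of them. The means were 40.4 ± 11.7 and 56.0 ± 5.70 CPM (SD, n = 3 each). Its log2 fold change of -0.47 (SE 0.20) did not pass (adjusted p = 0.343).

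Rxrb, a second retinoid X receptor, had 42.5, 36.7 and 33.0 CPM in knockout-labelled animals and 50.7, 43.3 and 45.0 CPM in wild-type animals. The groups did not overlap, by a gap between 42.5 and 43.3 CPM, and the log2 fold change was -0.31 (SE 0.15, adjusted p = 0.379). Rarg, the retinoic acid receptor best known from epithelia, averaged 52.1 ± 7.88 and 57.6 ± 7.60 CPM, and Rxrg, known from cone photoreceptors and muscle, 5.64 ± 2.72 and 5.29 ± 2.08 CPM (SD, n = 3 each). Within the retinoid X receptors, Rxra made up 64.7% ± 3.53 of the summed CPM per kb with the knockout label and 60.2% ± 1.79 in the wild type, Rxrb 29.8% ± 3.46 and 34.8% ± 2.06, and Rxrg 5.55% ± 2.37 and 5.06% ± 2.10 (SD, n = 3 each). The ranges of Rxra did not overlap, at 61.4% to 68.5% and 58.1% to 61.4%, although they touched at this rounding. Such shares do not depend on the library scaling. Within the retinoic acid receptors, with Rarb added although it is no member, Rarg held 38.6% ± 2.06 and 39.2% ± 5.16 (SD, n = 3 each). Rara held between 20.1% and 25.1% with the knockout label and between 27.8% and 34.8% in the wild type, and Rarb 36.6% to 39.1% and 27.0% to 35.2%. Neither pair of ranges overlapped. The longest transcripts of Rara and Rarb have a GC content of 59.19% and 47.81%. Of all 28 shares computed in 11 groups of related genes, 5 had ranges that did not overlap, 3 higher and 2 lower with the knockout label, and none was tested. Shares of a group add up to the whole, so a lower share of one gene raises those of the others. Rara and Rarb belong to the same group, as do Nr2f2 and Nr2f6, so the 5 are not separate observations. Levels of all tested genes also failed to overlap in each direction, at the rates given above. The 5 are therefore not read as a result.

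Of 11 tested genes that retinoic acid is known to induce, 5 lay above 0 and 6 below, 0 were called, and the median log2 fold change was -0.07. Stra6, the retinol transporter of the pigment epithelium, had 550 ± 228 and 647 ± 92.5 CPM (SD, n = 3 each). Tgm2, a transglutaminase named after its values were seen, had 285, 363 and 290 CPM against 248, 258 and 184 CPM. All its knockout-labelled values lay above the wild-type values, and the log2 fold change of 0.44 (SE 0.17) did not pass (adjusted p = 0.305).

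**Figure D3:**
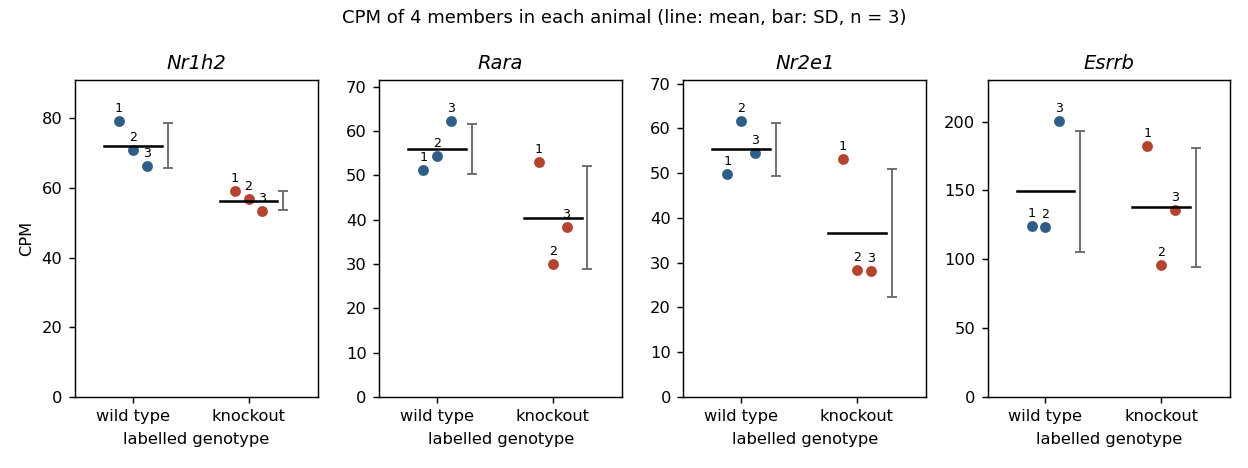
CPM of 4 members is drawn for each animal, numbered, with the group mean as a line and the SD as a bar beside it. Nr1h2 separates the groups with a narrow spread, the knockout-labelled points of Rara and Nr2e1 split into animal 1 and animals 2 and 3, and Esrrb spreads as widely within each group as across them.

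Of the 3 thyroid hormone and vitamin D receptors 1 lay above 0 and 2 below, and 0 passed. Thra, the main thyroid hormone receptor of many tissues, had 114, 124 and 134 CPM in knockout-labelled animals and 153, 167 and 134 CPM in wild-type animals. The groups overlapped only between knockout-labelled animal 3 and wild-type animal 3. The means were 124 ± 9.94 and 151 ± 16.9 CPM (SD, n = 3 each), with a log2 fold change of -0.29 (SE 0.13, adjusted p = 0.374). Thra shares 263 bases of exon with Nr1d1 on the opposite strand, so reads of the 2 genes cannot be told apart there without a stated strand setting. Nr1d1, a clock receptor, averaged 131 ± 23.7 and 140 ± 25.7 CPM. Thrb, the form that directs cone opsin choice in the retina, averaged 39.7 ± 2.14 and 40.01 ± 3.26 CPM (SD, n = 3 each). Thra made up 86.9% ± 1.52 of the pair's CPM per kb with the knockout label and 88.8% ± 1.93 in the wild type (SD, n = 3 each). Vdr, the vitamin D receptor, was low in all libraries, at 2.05, 5.82 and 3.14 CPM against 2.11, 2.15 and 2.87 CPM. Knockout-labelled animal 2 stood above the other 5 libraries.

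Of 7 tested thyroid hormone targets, 3 lay above 0 and 4 below, 0 were called, and the median was -0.01. The most abundant were Atp2a1, a calcium pump of fast muscle, at 541 ± 285 and 397 ± 237 CPM, and Me1, malic enzyme, at 187 ± 18.7 and 154 ± 22.7 CPM (SD, n = 3 each). Of 5 vitamin D targets only 2 were tested, both above 0 and neither called. Spp1, osteopontin, had 430 ± 119 and 392 ± 96.4 CPM, Trpv6, a calcium channel, had 4.19 ± 2.60 and 3.04 ± 1.53 CPM (SD, n = 3 each), and Cyp24a1, the classical vitamin D target, had 0 counts in every library.

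Of the 5 fatty acid and oxysterol receptors 1 lay above 0 and 4 below, and 0 passed. Nr1h2 had the smallest p of all the members. It encodes the liver X receptor beta, which senses oxysterols and turns on cholesterol export (chr7:44549616-44553951, GRCm38). It was counted at 59.0, 56.7 and 53.4 CPM in knockout-labelled animals 1, 2 and 3 against 79.2, 71.0 and 66.4 CPM in the wild type. All 3 knockout-labelled values lay below all 3 wild-type values. The means were 56.4 ± 2.82 and 72.2 ± 6.49 CPM (SD, n = 3 each), a ratio of 0.781. The log2 fold change was -0.36 (SE 0.12, 95% interval -0.63 to -0.08), and it did not pass (adjusted p = 0.247). A correction for transcript GC content moved it to -0.06.

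Nr1h3, the liver X receptor alpha, was far lower, at 6.19 ± 1.80 and 6.96 ± 0.626 CPM (SD, n = 3 each). Nr1h2 made up 90.7% ± 2.57 of the pair's CPM per kb with the knockout label and 91.7% ± 1.04 in the wild type (SD, n = 3 each), so the beta form dominated this tissue in both groups. Of 11 liver X receptor targets, 6 lay above 0 and 5 below, and 0 were called. Apoe, the main lipid carrier of the eye and brain, had 2845 ± 502 and 3750 ± 718 CPM, and Scd2, a fatty acid desaturase, 1241 ± 61.9 and 1013 ± 156 CPM (SD, n = 3 each). Abca1, the cholesterol exporter, was the single one with an unadjusted p under 0.05, at 125 ± 7.15 and 156 ± 9.56 CPM (SD, n = 3 each), and it was named after its values were seen. Its adjusted p was 0.286.

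The peroxisome proliferator-activated receptors sense fatty acids. Ppara, which drives fatty acid oxidation, averaged 22.8 ± 6.20 and 27.5 ± 2.46 CPM, and Pparg, the adipocyte form, 9.43 ± 2.67 and 8.55 ± 0.206 CPM (SD, n = 3 each). Ppard, the broadly expressed form, had 18.9, 9.82 and 17.8 CPM in knockout-labelled and 19.6, 19.8 and 21.7 CPM in wild-type animals. The groups did not overlap, but the distance was carried by knockout-labelled animal 2, and the log2 fold change was -0.39 (SE 0.25, adjusted p = 0.512). Each of the 3 receptors varied more among the knockout-labelled animals than among the wild-type animals: the coefficients of variation were 27.2% and 8.93% for Ppara, 31.8% and 5.69% for Ppard and 28.3% and 2.41% for Pparg. The sum of the 3 on CPM per kb was 15.1 ± 2.13 and 17.6 ± 0.890 (SD, n = 3 each). Of 17 tested targets of these receptors, 9 lay above 0 and 8 below, 0 were called, and the median was 0.03. The 6 with an unadjusted p under 0.05 were split, 3 above 0 and 3 below. The count of called targets was 2 with DESeq2, which called 3.25% of all genes, 1 with edgeR's exact test, which called 2.23%, and 1 without knockout-labelled animal 1, where 4.95% of all genes were called.

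The bile acid and xenobiotic receptors, which in liver share with AhR the control of detoxifying enzymes, were scarce. Nr1h4, the bile acid receptor FXR, was the only one of the 3 with enough counts, at 5.19, 5.65 and 3.14 CPM in knockout-labelled and 3.08, 2.85 and 1.69 CPM in wild-type animals. It was the 1 member whose knockout-labelled values all lay above the wild-type values, by a gap between 3.08 and 3.14 CPM. Its log2 fold change was 0.87 (SE 0.43), and the interval, from -0.09 to 1.84, reached up to a 3.57-fold difference (adjusted p = 0.395). Nr1i2, the pregnane X receptor, had 0 counts in the knockout-labelled animals and 3, 17 and 0 in the wild-type animals. The authors' deposited table gives it a log2 fold change of -6.22 (sign turned, FDR 0.316). Nr1i3, the constitutive androstane receptor, had 15, 0 and 0 counts and 0, 2 and 6 counts, and it shares 2160 bases of exon with Tomm40l on the opposite strand. Of the 9 targets of these receptors 3 were tested and 0 called. Abcb1a, a drug efflux pump of barrier endothelium, had 23.3 ± 2.73 and 30.9 ± 1.86 CPM (SD, n = 3 each). Cyp3a13, a cytochrome P450, had 2.39, 18.7 and 11.6 CPM against 3.31, 1.53 and 1.87 CPM. Knockout-labelled animals 2 and 3 stood above the other 4, and the log2 fold change was 2.28 (SE 0.65, adjusted p = 0.200). It was the 1 gene of the list called with DESeq2 (adjusted p = 0.0124), with edgeR's exact test (adjusted p = 0.0348) and without knockout-labelled animal 1 (adjusted p = 0.0165). Slc51a, a classical FXR target, had 0 counts in every library.

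Of the 4 tested oestrogen and oestrogen-related receptors 2 lay above 0 and 2 below, and 0 passed. Esrrb, known from rod photoreceptors and stem cells, belongs to the oestrogen-related receptors, which drive mitochondrial genes. It was counted at 182, 95.9 and 136 CPM in knockout-labelled animals and 124, 123 and 200 CPM in wild-type animals. The spread within each group, with coefficients of variation of 31.3% and 29.7%, was the widest among the 5 most abundant members, and the means of 138 and 149 CPM lay closer than it. The log2 fold change was -0.11 (SE 0.26, adjusted p = 0.883). The summed level of 8 photoreceptor markers was 12464, 11345 and 10967 CPM and 7570, 8521 and 16461 CPM in the same order of animals, so both were highest in wild-type animal 3. Whether retinal RNA carried over in the dissection has a part in the level of Esrrb was not tested.

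Esrra, the form found in most oxidative tissues, had 40.1, 43.2 and 39.6 CPM against 50.8, 53.7 and 43.4 CPM. The groups did not overlap, by a gap between 43.2 and 43.4 CPM, and the log2 fold change of -0.27 (SE 0.13) did not pass (adjusted p = 0.405). Esrrg averaged 30.1 ± 9.38 and 26.8 ± 2.48 CPM (SD, n = 3 each). All 8 targets of these receptors, enzymes of the citric acid cycle and respiratory chain and their partners, lay above 0, with a median of 0.23, and 0 were called. The most abundant were Atp5b, a subunit of ATP synthase, at 1235 ± 46.4 and 1214 ± 47.2 CPM, and Mdh1, malate dehydrogenase, at 639 ± 54.2 and 543 ± 35.6 CPM (SD, n = 3 each). Cox5a, a subunit of cytochrome c oxidase named after its values were seen, had 127, 202 and 124 CPM against 80.7, 69.4 and 98.02 CPM. Its groups did not overlap, with a log2 fold change of 0.87 (SE 0.21, adjusted p = 0.171). It was the 1 target called with DESeq2 (adjusted p = 0.00863), with edgeR's exact test (adjusted p = 0.0159) and without knockout-labelled animal 1 (adjusted p = 0.0405). The oestrogen receptors themselves were nearly absent from these libraries: Esr1 had 3.40 ± 2.14 and 2.53 ± 0.336 CPM (SD, n = 3 each), and Esr2 had 19, 0 and 8 counts in the knockout-labelled and 0, 4 and 0 in the wild-type animals. Of 5 tested oestrogen targets 2 lay above 0 and 3 below, and 0 were called. The most abundant were Igfbp4, a binding protein of insulin-like growth factors, at 1144 ± 352 and 1568 ± 147 CPM, and Ccnd1, cyclin D1 of the cell cycle, at 325 ± 51.7 and 286 ± 19.8 CPM (SD, n = 3 each).

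Of the 3 corticosteroid and progesterone receptors 2 lay above 0 and 1 below, and 0 passed. Nr3c1, the glucocorticoid receptor, varied little, with coefficients of variation of 6.86% and 4.66%. It had 82.0, 93.9 and 86.7 CPM in knockout-labelled and 82.2, 86.7 and 90.2 CPM in wild-type animals. The groups overlapped over nearly their whole range, and the log2 fold change was 0.02 (SE 0.11, adjusted p = 0.958), with a 95% interval from -0.23 to 0.27. Nr3c2, the mineralocorticoid receptor, averaged 11.6 ± 3.84 and 9.62 ± 2.16 CPM, and Pgr, the progesterone receptor, 1.14 ± 0.587 and 1.18 ± 0.698 CPM (SD, n = 3 each). Nr3c1 made up 87.9% ± 2.75 and 89.4% ± 2.49 of the corticosteroid receptors' CPM per kb (SD, n = 3 each). Of 13 glucocorticoid targets 2 lay above 0 and 11 below, with a median of -0.13, and 0 were called. Per1, Dusp1 and Ddit4 had an unadjusted p under 0.05, all on the lower side, and these 3 also respond to other stress and clock signals. Ddit4 was called with DESeq2 (adjusted p = 0.0191), Dusp1 with the cornea marker level as a covariate (adjusted p = 0.0418), in a fit that called 0.152% of all genes, and Ddit4 and Per1 without knockout-labelled animal 1 (adjusted p = 0.0136 and 0.0336). The most abundant were the metallothionein Mt1, at 908 ± 207 and 996 ± 124 CPM, and the kinase Sgk1, at 784 ± 134 and 830 ± 91.9 CPM (SD, n = 3 each).

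Of the 8 tested orphan receptors 5 lay above 0 and 3 below, and 0 passed. Nr2e1, known as TLX and the member with the largest difference among the 24 above 10 CPM in every library, keeps neural stem cells dividing and shapes the developing retina (chr10:42561963-42583632, GRCm38). It was counted at 53.1, 28.4 and 28.1 CPM in knockout-labelled animals 1, 2 and 3 against 49.7, 61.6 and 54.6 CPM in the wild type. Knockout-labelled animal 1 lay inside the wild-type range, and animals 2 and 3 lay close to each other and well below it. The means were 36.5 ± 14.3 and 55.3 ± 6.002 CPM (SD, n = 3 each). The log2 fold change of -0.60 (SE 0.24, 95% interval -1.14 to -0.05) did not pass (adjusted p = 0.320).

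Rara and Nr2e1 share a layout, with knockout-labelled animals 2 and 3 apart from the other 4. Without knockout-labelled animal 1 both passed, Nr2e1 at -0.97 (adjusted p = 0.019) and Rara at -0.71 (adjusted p = 0.046), in a fit that called 2.4% of all genes in that direction. The animal left out was the only female with the knockout label, so the groups of that fit were not balanced by sex. In the same 2 animals the pigment epithelium markers had their lowest sums and the cornea and conjunctiva markers their highest, as given above. With the cornea marker level as a covariate the log2 fold changes were -0.18 for Nr2e1 (adjusted p = 0.831) and -0.16 for Rara (adjusted p = 0.865). All 9 cornea and conjunctiva markers lay above 0, with a median of 1.23. The covariate thus goes with the group label, and this fit cannot tell its part from that of genotype. The part of tissue makeup in either gene was not tested further.

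The COUP-TF receptors, which pattern the eye and its vessels, showed no call. Nr2f1 had 65.9, 71.1 and 52.9 CPM in knockout-labelled and 63.5, 57.7 and 56.7 CPM in wild-type animals. The groups overlapped, with a log2 fold change of 0.09 (SE 0.14, adjusted p = 0.811). With the GC correction it was 0.39 (SE 0.16, adjusted p = 0.374). Nr2f2, which specifies vein and lymphatic identity, averaged 59.5 ± 5.44 and 48.5 ± 10.1 CPM, and Nr2f6 18.3 ± 5.38 and 24.9 ± 3.34 CPM (SD, n = 3 each). As shares of the 3 on CPM per kb, Nr2f2 held between 34.8% and 36.6% with the knockout label and between 26.2% and 31.3% in the wild type, and Nr2f6 16.7% to 27.8% and 31.9% to 34.3%. Both pairs of ranges were apart, and are among the 5 of 28 named above. The longest transcripts of Nr2f2 and Nr2f6 have a GC content of 45.26% and 67.27%, the latter the highest of the tested members. The exons of Nr2f6 overlap those of Ocel1 on the opposite strand over 914 bases. Of the others, the testicular receptors Nr2c1 and Nr2c2 averaged 21.5 ± 5.32 and 30.3 ± 3.24 CPM with the knockout label and 19.8 ± 2.06 and 28.4 ± 3.04 CPM in the wild type, and the germ cell factor Nr6a1 16.0 ± 5.40 and 15.1 ± 1.21 CPM (SD, n = 3 each). Nr2c2 shares 3533 bases of exon with Mrps25, so its counts are uncertain. Nr5a2, a receptor of liver and pancreas, had 14, 0 and 17 counts and 11, 0 and 49 counts, and supports no statement about direction.

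Of the 5 coregulators 3 lay above 0 and 2 below, and 0 passed. Ncor1, the corepressor that anchors histone deacetylase 3 to unliganded receptors, had 175, 173 and 150 CPM in knockout-labelled and 145, 155 and 173 CPM in wild-type animals. The groups overlapped, and the log2 fold change was 0.08 (SE 0.13, adjusted p = 0.840), with a 95% interval from -0.22 to 0.37. Of the p160 coactivators, Ncoa1 averaged 93.1 ± 11.5 and 102 ± 3.30 CPM, Ncoa2 61.0 ± 1.91 and 58.6 ± 5.43 CPM, and Ncoa3 65.3 ± 5.10 and 69.3 ± 12.6 CPM (SD, n = 3 each). Their shares of the 3 on CPM per kb were 44.4% ± 3.99 and 46.6% ± 3.26 for Ncoa1, 25.1% ± 1.76 and 22.9% ± 1.41 for Ncoa2 and 30.4% ± 2.80 and 30.5% ± 3.22 for Ncoa3 (SD, n = 3 each). Nrip1, a corepressor of metabolic genes, averaged 24.8 ± 6.44 and 24.7 ± 3.64 CPM (SD, n = 3 each). Overlaps with opposite-strand exons of 1 to 155 bases touch Ncor1, Ncoa1, Ncoa3, Esrra and Nr3c2. Ncoa1 lies on the chromosome of Ahr, as do Esrrb and Esr2, at 31.0, 50.8 and 40.6 Mb from it, and 0 members lie within 10 Mb.

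Of 26 further coregulators 15 lay above 0 and 11 below, and 0 were called, against 1 with DESeq2 and 1 without knockout-labelled animal 1. The 2 most abundant were the chromatin remodeller Smarca4, at 171 ± 19.4 and 200 ± 17.4 CPM, and Zmiz1, at 139 ± 14.5 and 143 ± 9.38 CPM (SD, n = 3 each). Of 13 other nuclear receptors tested, 5 lay above 0 and 8 below, and 0 were called. The 2 most abundant were Nr1d2, at 177 ± 40.5 and 136 ± 18.1 CPM, and Nr1d1. Nr4a1, an immediate early receptor named after its values were seen, had 29.5, 43.5 and 103 CPM against 200, 161 and 126 CPM. The groups did not overlap, and the log2 fold change was -1.47 (SE 0.40, adjusted p = 0.185). It passed in edgeR's exact test (adjusted p = 0.0217) and not in DESeq2 (adjusted p = 0.156). Of the 8 genes of the AhR complex, 6 lay above 0 and 2 below, with a median of 0.17, and 0 were called. Ahr itself had a log2 fold change of 0.95 (SE 0.16, adjusted p = 0.0991), and it was the 1 gene of the list called with DESeq2 (adjusted p = 0.000208), with edgeR's exact test (adjusted p = 0.000546) and without knockout-labelled animal 1 (adjusted p = 0.0258). The chaperones Hsp90ab1, at 957 ± 57.2 and 945 ± 21.2 CPM, and Hsp90aa1, at 278 ± 7.25 and 233 ± 36.2 CPM, were the most abundant (SD, n = 3 each).

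**Figure D4:**
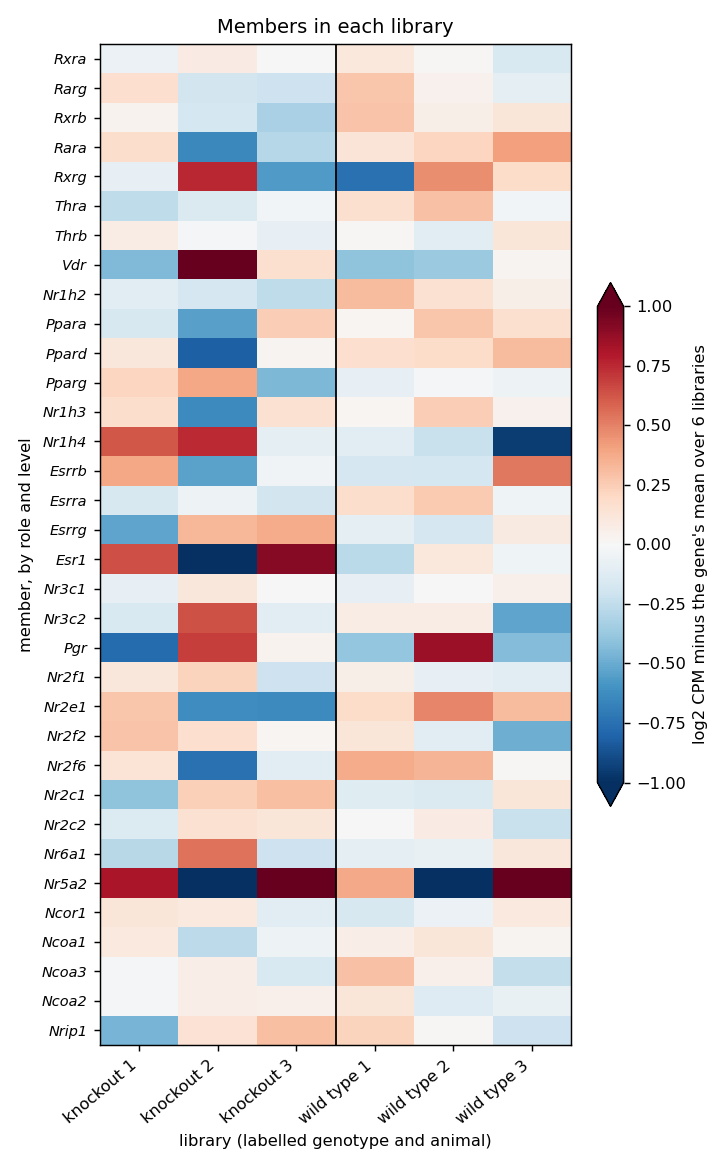
Colour gives each tested member's log2 CPM in a library minus its mean over the 6 libraries, by role and level, with knockout-labelled animals left of the line and wild-type animals right. Rara and Nr2e1 are low in knockout-labelled animals 2 and 3, Nr1h2 is low in all 3, and most other rows show no block by group.

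Read library by library, the median deviations of the members overlapped between the groups. The median deviation from each member's own mean was 0.01, 0.07 and -0.04 on the log2 scale in knockout-labelled animals 1, 2 and 3 and 0.06, 0.05 and 0.03 in wild-type animals 1, 2 and 3. Over all tested genes this median lay between 0.01 and 0.02 in every library. Of the 34 members, 17, 16 and 20 lay below their own mean in knockout-labelled animals 1, 2 and 3. In wild-type animals 1, 2 and 3 it was 12, 14 and 15. The matching share of all tested genes is not given, and the difference between the groups was not tested. These counts are therefore not read as a result about the members.

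The log2 fold changes of the members varied with the base composition of their transcripts, a property the choice of genes did not use. Ordered by the GC content of the longest transcript, the 12 members of the group with the lowest GC (42.2% to 47.52%, among them Nr3c1, Nr2f2, Thrb and Nr1h4) had a median log2 fold change of 0.11, and 3 of those lay below 0. The 11 members of the group in the middle (48.05% to 52.38%, among them Nr2e1, the PPARs and Ncor1) had a median of -0.09, with 6 below 0. The 11 of the group with the highest GC (54.6% to 67.27%, among them Rara, Rxrb, Thra, Nr1h2 and Nr2f6) had a median of -0.17, with 8 below 0. All tested genes in the same 3 ranges had medians of 0.10, 0.02 and -0.19, with 35.7%, 47.2% and 71.3% below 0. The members' medians thus came in the same order as those of all genes of like base composition. After a correction that removed each library's trend with GC content, the members' medians were 0.01, -0.08 and 0.01. The trend was fitted to each library without regard to genotype. The correction therefore takes out any group difference that follows GC content, whatever its source, and cannot tell sources apart.

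**Figure D5:**
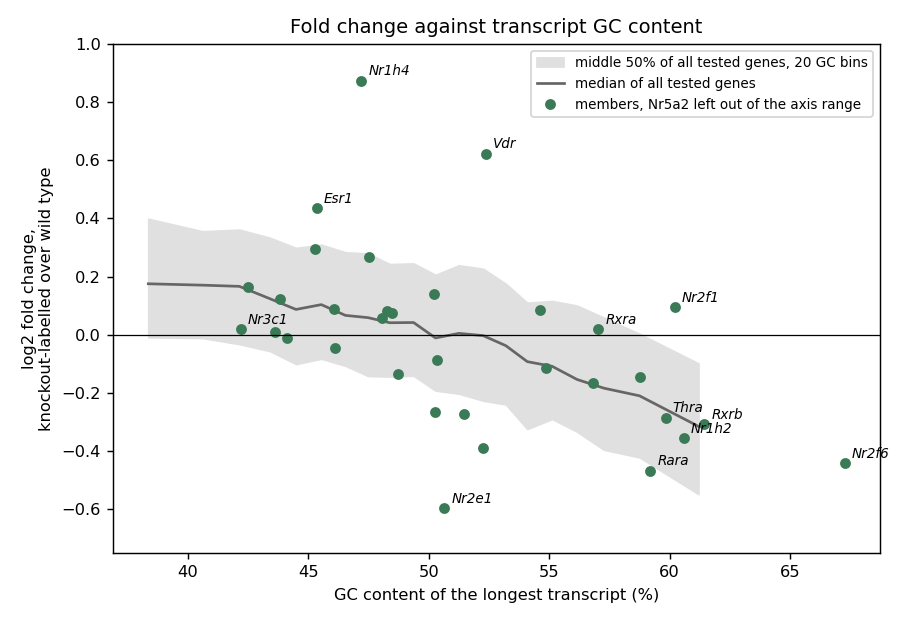
The log2 fold change of each tested member but Nr5a2 (points) is plotted against the GC content of its longest transcript in percent, over the median (line) and the quartiles (band) of all tested genes in 20 bins. Members at high GC content, such as Rxrb, Nr1h2 and Thra, lie near the line below 0, while Nr2e1, in the middle group, lies under the band.

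Single members moved with the correction. Nr1h2 moved from -0.36 to -0.06, Rara from -0.47 to -0.23, Rxrb from -0.31 to 0.01 and Thra from -0.29 to 0.01. Others moved away from 0: Nr2f1 from 0.09 to 0.39 and Rxra from 0.02 to 0.22. Nr2e1 was at -0.59 and Esrra at -0.27 after it. The GC content of Esrra was read from a transcript of 2489 bases, longer than the 2242 bases of exon used for its level. That transcript thus holds bases outside those exons, as do the ones used for Ppard and Nr6a1, so their corrected values are less certain. Whether the trend with GC content came from library preparation or from the tissue was not tested.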

How the data were processed

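Polyadenylated RNA of mouse RPE-choroid was sequenced for 3 knockout-labelled and 3 wild-type animals. The authors deposited whole-number counts per gene and animal, made with TopHat, Bowtie and HTSeq on mm10 per the submitters' processing notes. Tool versions, annotation and strand setting: not given in the sources used here. The authors' own edgeR results are a separate deposited table with log2 fold changes (wild type over knockout, sign turned here), log2 CPM, p-values and FDR.

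The counter's 5 tally rows entered neither library sizes nor tests. Spreadsheet dates stood in place of 27 gene names and 4 rows share a name, none of them a member. The main test was edgeR 4.0.16 (R 4.3.3): filterByExpr with a minimum count of 10 and a minimum total of 15, TMM, then glmQLFit and glmQLFTest on genotype alone, adjusted by Benjamini-Hochberg over 15796 genes. SE is the absolute log2 fold change over the square root of F. P-values measure the spread between these animals only. Exon lengths, GC content and coordinates came from GENCODE M21 (GRCm38, the build of mm10), and promoters from RefSeq (GRCm38.p6). Exon lengths used GENCODE's basic transcript set, and GC content the longest of all its transcripts. The fit was tested on simulated data.

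The members and gene lists were chosen with earlier results of these data known. Per-library values were given for members with an unadjusted p under 0.05, for the most abundant member of each role and for members whose call changed in an alternative. Rxrb, Ppard and Esrra were added after their values were seen, because their groups do not overlap. Vdr was also given per library though it meets none of these rules, as were the counts of the scarce Nr1i2, Nr1i3, Esr2 and Nr5a2. From each gene list at most the 2 most abundant genes were named, and others only for an unadjusted p under 0.05 or a count of 0, after their values were seen. Alternatives were DESeq2 size factors, upper-quartile factors, other low-count filters, DESeq2 1.42.0 on the same genes, limma-voom (limma 3.58.1), edgeR's exact test, a block for the animal number, a GC correction by offsets (lowess span 0.3), sex and the cornea markers as covariates, each library left out, and an adjusted p under 0.1. Protein sequences were not analysed here, and a few values are not reported here.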

Additional observations from a re-analysis of the deposited data

Results flagged for a closer look

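The counter's tally of alignments that were not unique, which enters none of the comparisons, took a larger share in every knockout-labelled library than in any wild-type library. It was 25.1%, 23.6% and 22.9% in knockout-labelled animals 1, 2 and 3 and 18.7%, 19.4% and 19.1% in wild-type animals 1, 2 and 3, with means of 23.9% ± 1.08 and 19.0% ± 0.331 (SD, n = 3 each). The two-sided exact permutation test gave p = 0.1, the smallest that 3 against 3 allows. It is listed because it is a signal outside the main measurement that lies above the control level. Its part in the counts of the members was not tested.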

How the results depend on the processing

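The count of members called stayed at 0 in every alternative but 1: leaving out 1 library at a time gave 0 to 2, the 2 being Nr2e1 and Rara without knockout-labelled animal 1. Members with an unadjusted p under 0.05, 3 in the main analysis, numbered 1 with the cornea marker covariate and 1 to 6 when 1 library was left out. Over all genes, 8 were called in the main analysis, 15 with upper-quartile factors, 22 without a filter, 16 when genes needed a CPM of 1 in 3 libraries, 493 with DESeq2, 13 with limma-voom, 352 with the edgeR exact test, 1 with the sex covariate, 24 with the cornea covariate and 30 at an adjusted p under 0.1. Leaving out 1 library gave 0 to 795, the highest without knockout-labelled animal 1. Of 204 counts of called genes in the target and partner lists, 18 moved, all from 0 to 1 or 2. They came from DESeq2, the exact test, the cornea covariate and leaving out knockout-labelled animal 1, and touched the AhR complex, the other receptors and coregulators, and the targets of the PPAR, bile acid and xenobiotic, oestrogen-related and glucocorticoid receptors. The cause of these differences was not tested.

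With the animal number as a replicate block 1 gene was called and 0 members, whose smallest adjusted p was 0.46. Same-numbered animals did not deviate together (correlations of -0.096, -0.092 and -0.067), so the numbers were not taken as pairs.

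Of the 14 genes with a log2 fold change followed through 17 alternatives, 9 kept its direction in all of them, Rara, Nr1h2 and Nr2e1 included. The sign of Rxra turned without a filter (-0.001) and with the cornea covariate (-0.074), and its values ran from -0.071 to 0.076 when 1 library was left out. Nr3c1 turned with the GC correction (-0.114) and the cornea covariate (-0.019), with a range of -0.036 to 0.062 without 1 library. Esrrb turned with the cornea covariate (0.243) and ranged from -0.368 to 0.135 without 1 library. Thra (0.006) and Rxrb (0.007) turned with the GC correction.

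With 3 animals a group, the 95% intervals of 7 tested members reached past a 2-fold change. The 5 untested members had too few counts for any statement on direction.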
